A study of Yarrowia lipolytica with 6 samples.

Results

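ABC1 (locus tag YALI0_E14729g) is a gene of the oil yeast Yarrowia lipolytica for an ATP-binding cassette transporter that has been linked to the use of alkanes. It was chosen by its locus tag in the authors' deposited table of the comparison, as 1 gene of the 9235 features counted in each library. That table lists only genes with adjusted p under 0.05, and earlier results of these data were known. A pass for ABC1 is therefore nearly built in. The tested strain lacked SNF1 (∆Snf1, made by homologous recombination), and was set against the strain CXAU/AI, which the labels give as wild type, with 3 biological replicates of each. Cultures of both strains were grown for 24 h at 30 °C in medium with uracil, washed and given 2% n-decane with 1% uracil for 1 h; 0.1% Triton-X then freed the cells of decane droplets. Every library therefore comes from decane-treated cells, so a difference already present before decane cannot be told apart from one that arose with it. The labels do not say how many independent deletion clones were used.

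ATP-binding cassette transporters are membrane proteins that spend ATP to move lipids, drugs and other small hydrophobic molecules across a membrane, and in yeasts many of them sit in the plasma membrane. Alkanes are hydrophobic substrates that Y. lipolytica takes up from oil, oxidises with cytochrome P450 enzymes of the ALK family and then shortens in peroxisomes. Snf1 is a protein kinase known from Saccharomyces cerevisiae for switching on genes for carbon sources other than glucose.

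Total counts ranged from 32315239 to 37094343 in the 3 deletion libraries and from 33835106 to 38054417 in the 3 wild type libraries. The deleted gene checked the labels: SNF1 had 0 counts in all 3 deletion libraries, against 3644, 3418 and 2546 counts in wild type, so SNF1 was at least 1326-fold lower in the deletion, taking 3 counts per library as the floor. No library went against its label. Levels are in CPM, which puts counts on a common library size after TMM adjustment, and log2 fold changes are the deletion over wild type from edgeR's quasi-likelihood test. An adjusted p under 0.05 counts as passing. The deposited count rows carry RefSeq accessions and the authors' deposited table of the comparison carries locus tags, so ABC1 had to be tied to its count row. The nearest coding row on chromosome E lay at a scaled distance of 0.462 in mean, fold change and standard error, and the next one at 27.3. A check that the tie did not use gave the same place: the table's assembly number for ABC1 is 5032, and that count row stands between assembly numbers 5030 and 5036. Among all tied genes, 99.5% stood between the right numbers. The tie rests in part on the fold change, so the closeness of the deposited fold change to the one below is built in.

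ABC1 RNA was nearly lost without Snf1. The deletion libraries held 177, 330 and 252 counts of ABC1, against 6455, 3461 and 5346 counts in the wild type libraries. As levels, these were 4.50, 7.91 and 6.83 CPM in the deletion, and 203, 116 and 157 CPM in wild type. All 3 deletion libraries were low and all 3 wild type libraries high, with a wide gap between them. Such a split, with every deletion library below every wild type library, was found in 27.9% of coding rows. The lowest wild type library was still 14.7 times the highest deletion library, and the ratio over the 9 possible pairs reached 45.1. The mean was 6.41 ± 1.74 CPM in the deletion and 159 ± 43.2 CPM in wild type (SD, n = 3 each), so that 4.04% of the wild type level remained. The log2 fold change was -4.63 (SE 0.39, 95% interval -5.47 to -3.79, adjusted p = 2.13e-06), which is 24.7-fold lower with an interval from 13.8-fold to 44.3-fold. Falls past the threshold were common in this comparison, at 18.7% of all features tested and 21.3% of RefSeq coding rows, and 37.1% of features passed in either direction. These were 1356 lower and 1329 higher features, and 936 lower and 1946 higher with library size only in place of TMM. An exact two-sided permutation test on ABC1 alone gave p = 0.1, which is the smallest value that 3 against 3 libraries allow. In bulk RNA, less ABC1 RNA per cell and fewer cells with that RNA cannot be told apart.

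**Figure D1:**
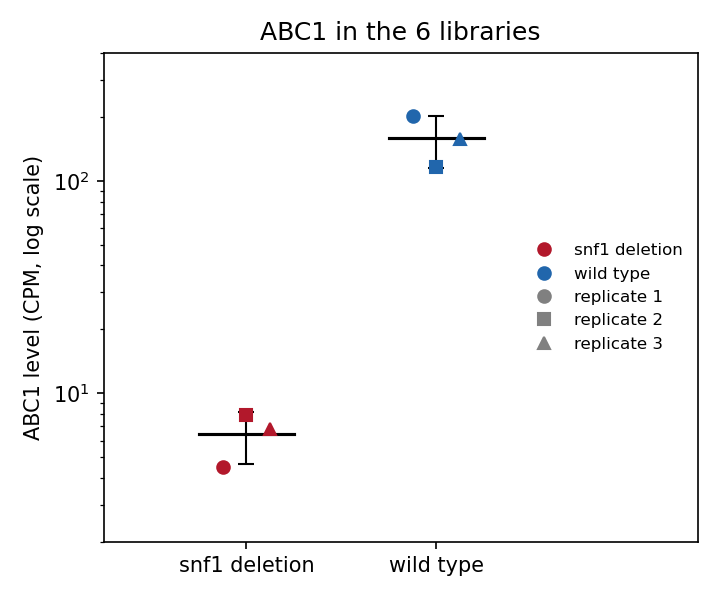
ABC1 level in each library, in CPM on a log axis, with the snf1 deletion on the left and wild type on the right. Points are libraries, the horizontal bar is the group mean and the whiskers are 1 SD; the deletion libraries lie between 4.50 and 7.91 CPM and the wild type libraries between 116 and 203 CPM.

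Within each group the spread over the libraries was wider than counting error, though not for every pair of libraries. The coefficient of variation was 27.2% in the deletion and 27.2% in wild type. In deletion replicate 1, the library with the fewest ABC1 counts, the 177 counts have an exact Poisson 95% interval of 152 to 205 counts. That library's level thus lay between 3.86 and 5.21 CPM by counting alone, while replicate 2 lay between 7.08 and 8.81 CPM. Deletion replicate 3 lay between 6.01 and 7.72 CPM, which overlaps the interval of replicate 2. The deletion libraries were therefore not empty of ABC1 reads: a low level was measured in each of them. Whether those reads come from ABC1 itself or from a related transporter gene with similar sequence was not tested. No source used here says how reads that match several genes were handled, or whether strand was used.

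The level order of the wild type libraries for ABC1 was replicate 1, then 3, then 2. This order was found in 25.4% of all coding rows tested and in 11.7% of the coding rows that fell. None of the 8 ALK genes that could be tied to count rows had it, and 7 of those 8 were highest in wild type replicate 2, the library where ABC1 was lowest. The exception was ALK1, which like ABC1 was highest in replicate 1. The share of coding rows highest in wild type replicate 2 was not computed, so that pattern is not read as a trait of the ALK genes. This is a description of single libraries, with no test.

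In the authors' deposited table, ABC1 has a mean of 2390 normalised counts, a log2 fold change of -4.46 with a standard error of 0.353, and an adjusted p of 1.02e-34. It stands in place 95 of 2840 listed genes, counted from the largest fall, and in place 90 of the 2109 with a protein-coding tag. That table was made from the same libraries, so it is no independent support.

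The size of the loss was next set against rows of like abundance. ABC1 stood in place 1111 of 5613 tested RefSeq coding rows by wild type CPM, counted from the highest, and in place 4682 by deletion CPM. Of the coding rows, 1236 had a wild type mean within 2-fold of ABC1, from 79.3 to 317 CPM. Among these, ABC1 had the 22nd lowest log2 fold change, which is within the lowest 1.78%. The lowest of all was the deleted gene SNF1 itself. The middle of this group lay at -0.58, with its first quartile at -1.29 and its 5th percentile at -2.92. A fall past the threshold was itself ordinary there: 34.6% of these rows fell and 6.23% rose, and in 42.7% every deletion library lay below every wild type library. A match on the mean log2 level over all 6 libraries, which also moved the window to a lower level, gave 2024 rows with a median of -0.17, and ABC1 was in place 26 of them.

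The rank has an error of its own. At the upper and lower ends of its 95% interval ABC1 would take places 32 and 14 of the 1236 rows, with the other rows held at their estimates. For 23 other rows the interval of the log2 fold change held the value of ABC1, so ABC1 cannot be set apart from these in order. That count leaves out the error of ABC1 itself, so the order against further rows may also be unresolved. Just below ABC1 in fold change stood YALI0_D01738g at -4.64 (SE 0.54), YALI0_A00154g at -4.72 (SE 0.92) and YALI0_F22121g at -4.84 (SE 0.53). Just above it stood YALI0_E20691g at -4.51 (SE 0.56), YALI0_A15103g at -4.46 (SE 0.44) and YALI0_D00132g at -4.45 (SE 0.44). ABC1 had the smallest standard error of these 7 rows, and by adjusted p it was in place 14 of the 1236. Of the 6 rows beside it, YALI0_A00154g moved to -3.79 without wild type replicate 3, to -5.62 without deletion replicate 2 and to -4.004 with limma-voom, and YALI0_D01738g moved to -3.93 without wild type replicate 2.

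**Figure D2:**
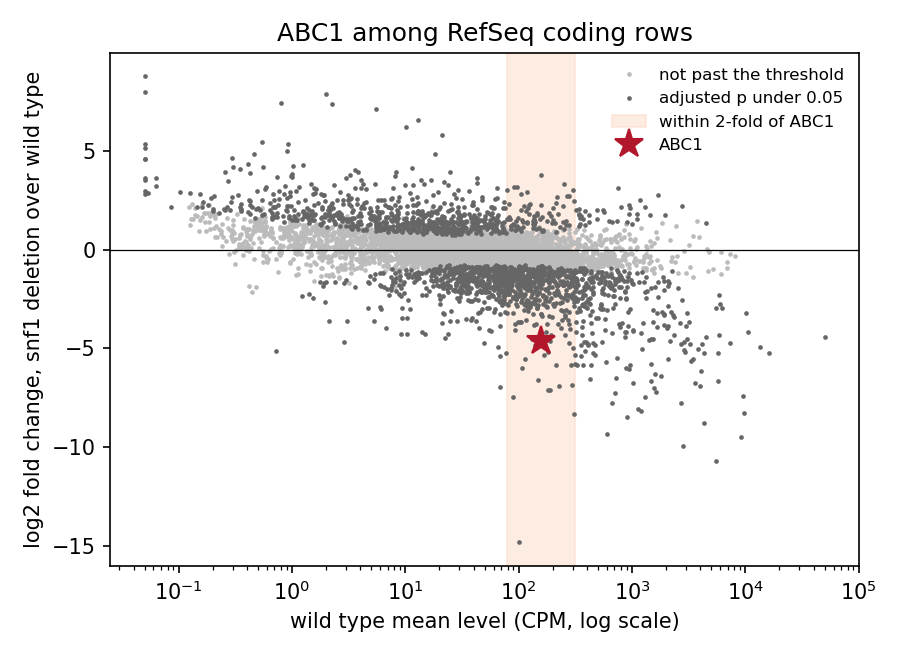
Log2 fold change of the deletion over wild type against the wild type mean in CPM on a log axis, for each tested RefSeq coding row (rows under 0.05 CPM are drawn at 0.05). The shaded band holds the 1236 rows within 2-fold of ABC1, and the star marks ABC1 at -4.63, below all but 21 of them. Those 21 include the deleted gene SNF1.

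Matching on reads treats long and short transcripts as unlike, and ABC1 is long. Its gene length in the RefSeq W29 assembly is 5303 bases, the 18th longest of 5204 tested coding rows with a length, where the median is 1262 bases. Per kb of that length, ABC1 stood at 1.21 CPM per kb in the deletion and at 29.9 CPM per kb in wild type, which is place 2645 of the 5204 by wild type level. Per length, ABC1 is thus a gene near the middle of the wild type range. Among the 1594 rows within 2-fold of that level per kb, ABC1 had the 3rd lowest log2 fold change, or the lowest 0.188%, and 22.1% of the rows fell. Only the deleted gene SNF1 and YALI0_F28369g, at -4.71 (SE 0.51), were lower, and YALI0_E22132g followed at -4.28 (SE 0.48). YALI0_F28369g stood at -5.32 without deletion replicate 3. These names were added after their values were seen. Of the 21 rows that fell further in the match by reads, 19 have a W29 length, with a median of 1302 bases, and 18 of those stood above the 2-fold range per kb. The place of ABC1 among rows of like abundance thus depended on the measure of abundance, 22 of 1236 by CPM and 3 of 1594 by CPM per kb. The match per kb was added after seeing the data, and the lengths belong to another strain's assembly.

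The coding rows whose pattern over the 6 libraries was most like that of ABC1 were found by the root mean square difference in log2 CPM, each row centred on its own mean. Over 5612 other rows the median difference was 2.32, and the 8 nearest rows lay between 0.250 and 0.344. Their Pearson correlations with ABC1 over the 6 libraries were between 0.991 and 0.998. The 6 points fall into 2 groups of libraries, so these values mainly restate a like fall: 396 coding rows that fell had a correlation over 0.95. The nearest row was YALI0_E34672g, with 149, 258 and 215 CPM in the deletion, and 5005, 4662 and 3801 CPM in wild type. It thus kept 4.62% of its wild type level, where ABC1 kept 4.04%. POX2, an acyl-CoA oxidase of peroxisomal beta-oxidation, came next, with 308, 511 and 507 CPM in the deletion, and 16187, 13453 and 10709 CPM in wild type. FAT1, a gene of fatty acid transport and activation, was the 8th, at a difference of 0.344. It held 77.2, 208 and 161 CPM in the deletion, and 5019, 4249 and 3107 CPM in wild type. Both genes shared with ABC1 the low value in deletion replicate 1 and the high value in wild type replicate 1. So did YALI0_E34672g, YALI0_F18084g, YALI0_E30789g and YALI0_B19756g, and all these rows were picked for a pattern like that of ABC1. Of the wild type libraries, POX2 and FAT1 were lowest in replicate 3, whereas ABC1 was lowest in replicate 2.

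The remaining 5 of the 8 were YALI0_D00132g, YALI0_F18084g, YALI0_E30789g, YALI0_F02959g and YALI0_B19756g, which the files do not name. Like ABC1, YALI0_D00132g was lowest of the wild type libraries in replicate 2, with 91.7 CPM there against 217 and 227 CPM in wild type replicates 1 and 3. In YALI0_F02959g the wild type libraries were nearly level, at 187, 194 and 195 CPM. All 8 fell, with log2 fold changes from -4.93 for POX2 to -4.18 for YALI0_E30789g. The calls for ABC1 and for these 8 rows held in all 15 other fits. Likeness in 6 libraries of 1 comparison is a description and was not tested.

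**Figure D3:**
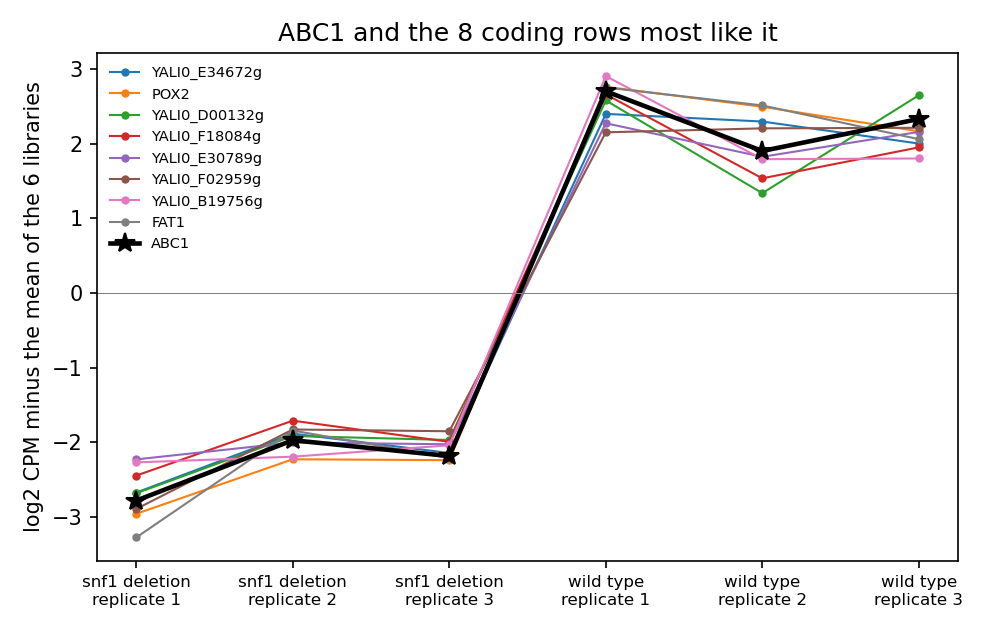
Log2 CPM minus the row's own mean over the 6 libraries, for ABC1 (black stars) and the 8 coding rows nearest to it, with the snf1 deletion libraries on the left and the wild type libraries on the right. Lines join the libraries of a row only to guide the eye; the rows lie within a root mean square difference of 0.344 of ABC1.

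Genes beside ABC1 on the chromosome did not share its fall. In the W29 assembly, 5 of the 6 nearest coding genes on chromosome E, 3 on each side, had a tested count row. None of these 5 passed edgeR's test in either direction, where 35.5% of coding rows did. YALI1_E17643g, next to ABC1 on one side, had 33.7, 16.9 and 16.2 CPM in the deletion, and 15.2, 7.94 and 11.4 CPM in wild type. Its groups did not overlap, and its log2 fold change was 0.95 (SE 0.38, adjusted p = 0.0643). YALI1_E17754g, next on the other side, had 55.0, 185 and 116 CPM in the deletion, and 48.3, 90.7 and 41.9 CPM in wild type. Its groups overlapped, and the log2 fold change was 0.98 (SE 0.44, adjusted p = 0.0957). The outer neighbours had log2 fold changes of 0.08 for YALI1_E17613g, 0.43 for YALI1_E17616g and 0.34 for YALI1_E17760g. The authors' deposited table lists YALI0_E14707g, whose assembly number 5031 comes just before that of ABC1, as higher (adjusted p = 0.0386). It was not tied, since 2 count rows had values too much alike, and the nearer of these was that of YALI1_E17643g.

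For the inner pair the call depended on the setting, and each call made was a rise. YALI1_E17643g passed with library size only (adjusted p = 0.0205), upper-quartile scaling (0.0187), the replicate block (0.0322) and without deletion replicate 2 (0.0404). Among the alternatives that test for any change, its adjusted p ran up to 0.285, without deletion replicate 1. The test against a 2-fold change, which asks for more, gave an adjusted p of 0.703. YALI1_E17754g passed with library size only (0.0185), upper-quartile scaling (0.0191), and without deletion replicate 1 (0.0252) or wild type replicate 2 (0.0326). The log2 fold change of ABC1 lay below the 95% interval of each of the 5 neighbours, and none of their intervals overlapped that of ABC1.

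**Figure D4:**
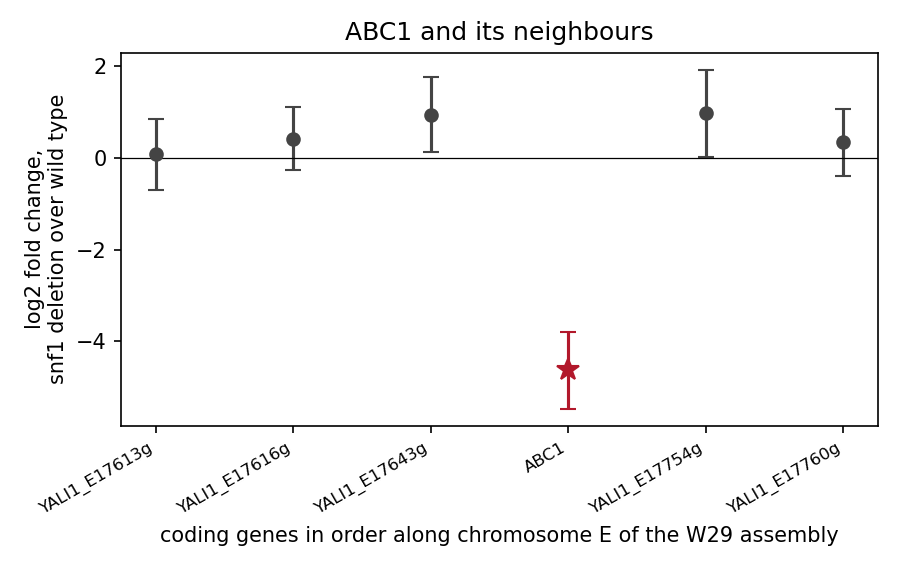
Log2 fold change of the deletion over wild type for ABC1 (red star) and the 5 tested coding genes nearest to it in the W29 assembly, in chromosomal order and not to scale of distance; whiskers are 95% intervals. ABC1 stands at -4.63 and its neighbours between 0.08 and 0.98.

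A list of 6 locus tags was drawn up from general knowledge as ABC transporter genes. The files name none of them, so only their tags are given. Of these, 5 stand lower in the deletion in the authors' deposited table, and YALI0_B02544g is not listed. Only genes in that table could be tied to count rows, and it holds only adjusted p under 0.05, so a pass for a tied gene is nearly built in. The 4 tied tags all passed as lower, where 18.7% of all features tested did, and nothing is read from that count. In the table itself the 5 tags, with ABC1 at -4.46 among them, have a median log2 fold change of -2.12, beside -1.01 over its protein-coding tags. Only passing tags enter these medians, so nothing is read from that difference either. ABC1 had the lowest value of the 4 tied tags. YALI0_D04246g had 33.4, 56.4 and 37.8 CPM in the deletion, and 321, 331 and 281 CPM in wild type, with a fitted log2 difference of -2.87 (SE 0.35, adjusted p = 4.73e-05). Its groups were far apart, but 13.7% of the wild type level remained.

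YALI0_C20265g had 176, 1107 and 488 CPM in the deletion, and 2587, 1661 and 2008 CPM in wild type, with a fitted log2 difference of -1.82 (SE 0.57, adjusted p = 0.0229). The deletion libraries of this gene spread widely, and replicate 2, which was also the highest for ABC1, came close to wild type. Without that library the log2 fold change was -2.66. The call was lost without deletion replicate 1 (adjusted p = 0.0636), deletion replicate 3 (0.08), wild type replicate 1 (0.0736) or wild type replicate 3 (0.0727), with library size only (0.0585), and against a 2-fold change (0.132). YALI0_B12980g had 2.31, 2.30 and 2.63 CPM in the deletion, and 11.9, 2.89 and 12.8 CPM in wild type, with a fitted log2 difference of -1.93 (SE 0.51, adjusted p = 0.00959). Its wild type replicate 2 lay close to the deletion libraries, and the call did not survive leaving out wild type replicate 3 (adjusted p = 0.0619) or a test against a 2-fold change (0.072). YALI0_A06655g, not tied to a count row, has a log2 fold change of -2.12 with an adjusted p of 8.78e-12 in the authors' deposited table.

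**Figure D5:**
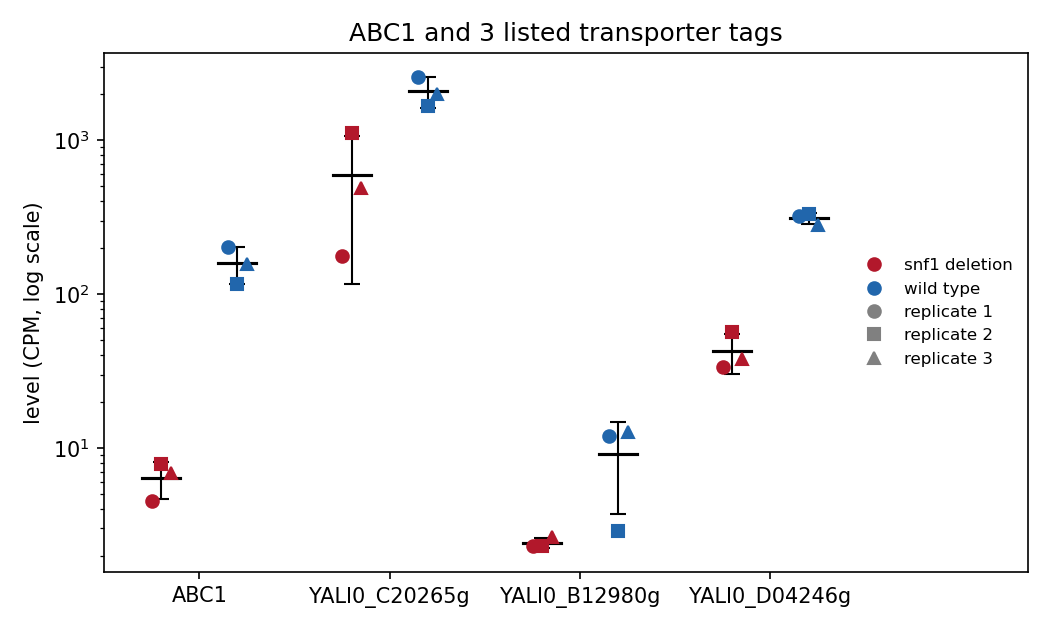
Levels in CPM on a log axis for ABC1 and the other 3 listed tags tied to count rows, with the snf1 deletion left of wild type for each gene. Points are libraries, bars are means and whiskers 1 SD; heights compare groups within a gene, since CPM are not per length, and ABC1 has the widest gap between its groups.

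The difference between genes was also read within each library, as the log2 ratio of ABC1 to each listed gene. The ratio of ABC1 to YALI0_D04246g ran from -2.89 to -2.47 in the deletion libraries and from -1.50 to -0.66 in the wild type libraries. The means differed by -1.73, with an exact two-sided permutation p of 0.1. The same ratio changed by -2.46 against YALI0_C20265g and by -2.97 against YALI0_B12980g, each again with p = 0.1 in the exact permutation test. In all 3 cases the 2 groups of libraries did not overlap, with ABC1 lower relative to the other gene in the deletion. However, 3 against 3 libraries cannot give a smaller p than 0.1. ABC1 had the 92nd lowest log2 fold change of the 5613 tested coding rows, so a lower ratio to most other genes is built in. The share of all coding rows with such a split was not computed, and nothing is read from these 3 cases.

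Among regulators, Yas1, a transcription factor known for turning on alkane-responsive genes, fell too, and its fitted fall was somewhat larger than that of ABC1. It had 1.85, 1.80 and 2.93 CPM in the deletion, and 95.9, 51.9 and 51.1 CPM in wild type, with a fitted log2 difference of -4.92 (SE 0.40, adjusted p = 1.83e-06). The log2 ratio of ABC1 to Yas1 was 1.55 ± 0.51 in the deletion and 1.29 ± 0.29 in wild type (SD, n = 3 each), a difference of 0.26 with p = 0.5 in the exact permutation test. That p does not show that the genes fell alike. Of the other 3 listed regulator tags, YALI0_E32417g is at -2.71 and YALI0_E07942g at -1.24 in the authors' deposited table, and YALI0_C14784g is not in it. Yas3, known as a repressor, has no tag in that table and is listed at -0.94 (adjusted p = 0.012).

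Of 12 tags listed for the ALK genes, 8 could be tied to count rows. All 8 passed as lower, beside 18.7% of all features tested, but being tied again required a place in the table of passing genes, so the count supports nothing. ABC1, at -4.63, lay inside the range of their log2 fold changes. ALK1 at -4.50, ALK4 at -3.66 and ALK2 at -3.31 fell by less, while ALK6 at -4.77, ALK3 at -5.20, ALK11 at -6.92, ALK9 at -7.44 and ALK5 at -8.48 fell by more. ALK3, whose wild type CPM of 181 ± 64.4 is close to that of ABC1, stood at 4.91 ± 1.36 CPM in the deletion (SD, n = 3 each). The authors' deposited table holds 8 of the 12 as lower, 1 as higher (YALI0_A15488g, at 1.90) and 3 not at all. The files do not name YALI0_A15488g, and its place on the list is doubtful: the table gives the name ALK7 to another tag, YALI0_E27533g, at -1.17 (adjusted p = 0.0069). These lists were drawn up with earlier results of these libraries known, so their counts are no independent support.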

How the data were processed

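RNA of 6 cultures was sequenced from directional libraries, per the labels' protocols. Tools named in the submitters' processing notes are DESeq2 2.11.40.7, StringTie, HISAT2 2.2.1 and Trimmomatic 0.38.0. The sources used here do not give the genome build, counting options or strand use. The deposited counts are raw whole numbers, per the file headers and values. Their DESeq2 table gives, per the file headers, mean normalised counts (entered as a signal), log2 fold changes, standard errors and Wald statistics (entered as scores) and p-values; it lists only genes with adjusted p under 0.05. Computed here, with edgeR 4.0.16 in R 4.3.3 (limma 3.58.1 and DESeq2 1.42.0 for alternatives), was a quasi-likelihood test of the deletion against wild type, 3 libraries each, after TMM scaling and filterByExpr (minimum count 10, minimum total 15), with Benjamini-Hochberg adjustment over the 7244 features tested. Each SE was taken as |log2 fold change| divided by the root of the F statistic. ABC1 was tied to a count row as the mutual nearest on its chromosome (scaled distance under 30, with the second-nearest 3 times as far and no nearer than 5); 1200 of 2109 genes were tied. The scripts were tested on simulated data. Intervals from counts cover counting error only.

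RefSeq W29 (ASM176148v1) gave accessions, lengths and neighbours, and no coordinates are printed, since the files' build is not given. Likeness used log2 CPM with a prior count of 2. Named genes are ABC1, SNF1, the listed tags, Yas3, the 8 rows most like ABC1 and the 3 rows on each side of it in rank; the chromosomal neighbours, YALI0_E14707g, YALI0_E27533g, YALI0_F28369g and YALI0_E22132g were named outside this rule, after their values were seen. A second list of ABC transporters, by protein similarity, was not built because no protein sequences were used here. The members and lists were chosen with earlier results of these data known. Alternatives were other scalings, filters, tests and windows, a replicate block and leaving out each library.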

Additional observations from a re-analysis of the deposited data

How the results depend on the processing

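ABC1 fell in all 15 other fits, with log2 fold changes from -4.81 to -4.27 and adjusted p from 2.21e-34 to 0.000105; leaving out 1 library gave -4.81 to -4.41. Library size only (-4.27) and upper-quartile scaling (-4.28) moved it least far from 0, and they shifted the median of all features by 0.36 and 0.35; relative to that median ABC1 was at -4.67 in both, as with TMM. With these scalings 67.5% of calls were higher, against 49.5% with TMM. Its place among rows of like abundance was 19 to 23 without 1 library, 13 of 706 in a 1.5-fold window, 45 of 2482 in a 4-fold window and 3 of 1594 per kb; rows called lower there numbered 243 and 781 in the 2 other windows, by construction, since the windows hold other numbers of rows. Tested against a 2-fold change (glmTreat), calls numbered 1146 over all features, 809 among coding rows, 201 among like-abundance rows and 2 of the 4 listed transporter tags. Without 1 library, 2 to 4 of those 4 tags were called, the lowest without wild type replicate 3; the cause was not tested. YALI1_E17613g, not called, ran from -0.14 (without deletion replicate 1) to 0.34 without 1 library, and was at -0.05 without wild type replicate 2. With the replicate block ABC1 was at -4.63 (adjusted p = 9.49e-06) and 2754 features were called, against 2685. Libraries that share a replicate number had correlations of their deviations of 0.05, 0.15 and 0.14. Combinations of unlike numbers ran from -0.16 to 0.08, and deletion replicate 1 correlated best with wild type replicate 3 (0.08). The main fit did not read the numbers as pairs, and whether they are pairs was not tested. For single genes over these fits, 462 values kept their call and direction, 8 calls were lost and 8 gained, and 2 values, both of YALI1_E17613g, changed sign. For ABC1 the spread between libraries exceeded the counting error that depth sets; its source was not tested.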
